A study of Drosophila melanogaster with 5 samples.

Results

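The genes described here encode the receptors of the steroid hormone ecdysone, the transcription factors that ecdysone and juvenile hormone switch on, and the enzyme that completes juvenile hormone. There were 10 of them among the 17597 genes counted after ribosomal RNA genes were left out: EcR, usp, Eip74EF, Eip75B, br, Hr3, Hr4, ftz-f1, Kr-h1 and jhamt. They are listed by name, as a readout of hormone state, and their values do not enter the choice, although earlier results of these data were known when the list was made. RNA-seq was performed on whole third-instar Drosophila larvae of the y1w1118 line (2 libraries), used as wild type, and of CG1603attP (3 libraries). In CG1603attP most of the gene for Mzfp1, a promoter-bound zinc-finger protein, is replaced with an attP site and a 3P3:dsRed reporter in a y1w1118 background. These larvae were homozygotes from balanced parents (CyO, GFP), and such larvae die in the second or the third instar. Every library came from pooled larvae, and their age within the instar and their sex are not given. All mutant larvae come from a single line, so the deletion and other differences between the lines cannot be told apart.

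Ecdysone acts through a heterodimer of the nuclear receptors EcR and Usp. Each pulse of the hormone first induces early genes such as Eip74EF, Eip75B and br, then early-late genes such as Hr3 and Hr4, and ftz-f1 is expressed once the pulse has passed. This order is repeated at the larval moults and at puparium formation. Juvenile hormone, made in the corpora allata with jhamt at the last step, acts through the receptors Met and gce on Kr-h1, and during larval life it keeps the response to ecdysone from becoming metamorphic.

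The libraries held between 9044930 and 14514277 reads on genes other than ribosomal RNA genes. The unit of level is CPM, a gene's reads per 1000000 reads of its library after TMM scaling, and 1 read was at most 0.116 CPM. Fold changes are CG1603attP against y1w1118 on the log2 scale, and their standard errors (SE) and p-values come from a quasi-likelihood fit in edgeR, the p-values adjusted by the Benjamini-Hochberg method over the 11045 genes tested. All 10 genes had enough reads to be tested. CG1603 itself had 0, 0 and 3 reads in CG1603attP and 124 and 102 in y1w1118. A pair of libraries stood apart, 1 of each genotype. The levels of 47 Twdl and Osi genes, which belong to families linked to moulting, were summed. The sum was 3773 CPM in CG1603attP replicate 1 and 2946 CPM in y1w1118 replicate 2. It was 260 and 308 CPM in the other mutant libraries and 1044 CPM in y1w1118 replicate 1. Most of those 1044 CPM came from TwdlO (569 CPM), TwdlN (260 CPM) and TwdlX (106 CPM), which edgeR called lower in CG1603attP. TwdlM, at 872 CPM in CG1603attP replicate 1 and 592 CPM in y1w1118 replicate 2, was at 1.67 CPM in y1w1118 replicate 1. The mutant libraries also had lower muscle transcripts. The summed level of 6 muscle genes was between 13250 and 18060 CPM in CG1603attP and 48590 and 54330 CPM in y1w1118. Of these 6 genes 6 were lower, beside 15.7% of all genes tested, with a median log2 fold change of -1.63. Of 6 neuronal genes 1 was higher, with a median of 0.42, and of 6 imaginal disc genes 1 was higher, with a median of 0.32. These counts are near the 14.6% of all genes that were higher. All 6 neuronal genes had a positive log2 fold change, and of the disc genes 3 had a positive and 3 a negative one. The part of the muscle and neuronal differences in the results below was not tested. In whole larvae a change in the number of cells of a type and a change in RNA per cell cannot be told apart.

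The level of a gene here rests on the reads that fall on it alone, since the counter set aside reads over more than 1 gene. EcR (FBgn0000546; dm6, chromosome 2R, 6087873 to 6169087), Eip74EF (FBgn0000567; 3L, 17558672 to 17619325), Eip75B (FBgn0000568; 3L, 17950953 to 18064696) and jhamt (FBgn0028841; 2L, 16365903 to 16367039) share no exon with another counted gene. For Hr4 (FBgn0264562; X, 1941940 to 2007956), br (FBgn0283451; X, 1575132 to 1664869) and usp (FBgn0003964; X, 2038798 to 2042311) the shared part was 0.331%, 0.936% and 8.72% of the exon length. It was 29.4% for ftz-f1 (FBgn0001078; 3L, 18750607 to 18801309), which overlaps lncRNA:CR45939. For Kr-h1 (FBgn0266450; 2L, 6082603 to 6096498) 78.6% of the exons lie in CG45075 on the same strand, and for Hr3 (FBgn0000448; 2R, 10203995 to 10237348) 82.7% lie in CG12912, CG46321 and lncRNA:CR46322 on the same strand. CG12912, CG46321 and CG45075 lie wholly in these shared exons and had 0 reads in all 5 libraries. The counts of Hr3 and Kr-h1 therefore come from 1810 and 1138 bp of unshared exon, and their CPM understate these genes. Most of the genes also have several annotated transcripts (16 for br, 7 for Eip75B, 6 for EcR), and the counts do not separate the isoforms.

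Of the 10 genes, EcR was higher and Hr4 was lower in CG1603attP larvae, and 8 did not pass the test. This is 2 of 10 genes, where 30.4% of all genes tested were called, so the number of calls does not set these genes apart from the rest. For 6 of the 10 (EcR, usp, Eip75B, br, Hr4 and ftz-f1) all mutant libraries lay on one side of both wild-type libraries, against 59.7% of all genes, and the same 6 had an unadjusted p under 0.05, against 41.8%. The log2 fold changes ran from -1.92 for Hr4 to 1.96 for ftz-f1, with a median of 0.23, and the median over all genes tested was -0.011. The number called depended on the libraries and the fit. It was 0 without y1w1118 replicate 1 (12.0% of all genes called), 1 without y1w1118 replicate 2 (ftz-f1; 12.2%), 1 without CG1603attP replicate 1 (Hr4; 25.9%), 4 without CG1603attP replicate 2 (EcR, usp, Eip75B and Hr4; 30.4%) and 2 without CG1603attP replicate 3 (EcR and Hr4; 32.3%). Without the pair of libraries high in Twdl and Osi genes it was 2 (Hr4 and ftz-f1; 14.0%). DESeq2 called 4 (EcR, usp, Eip75B and Hr4; 36.9%), scaling by library size only 5 (those and br; 31.7%), and the current form of the quasi-likelihood fit 3 (EcR, Hr4 and ftz-f1; 32.8%). ftz-f1 was also added without a filter on low counts (22.6%) and with the counts of one strand (31.3%), and the replicate number as a block left 2 (EcR and Hr4; 26.9%). EcR and Hr4 were the genes called under the other 6 settings too: a robust fit (31.7%), RLE (30.4%) or upper-quartile factors (30.6%), a minimum of 1 CPM in 2 libraries (30.9%), ribosomal RNA genes kept (30.3%) and the counts of the other strand (31.3%).

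**Figure D1:**
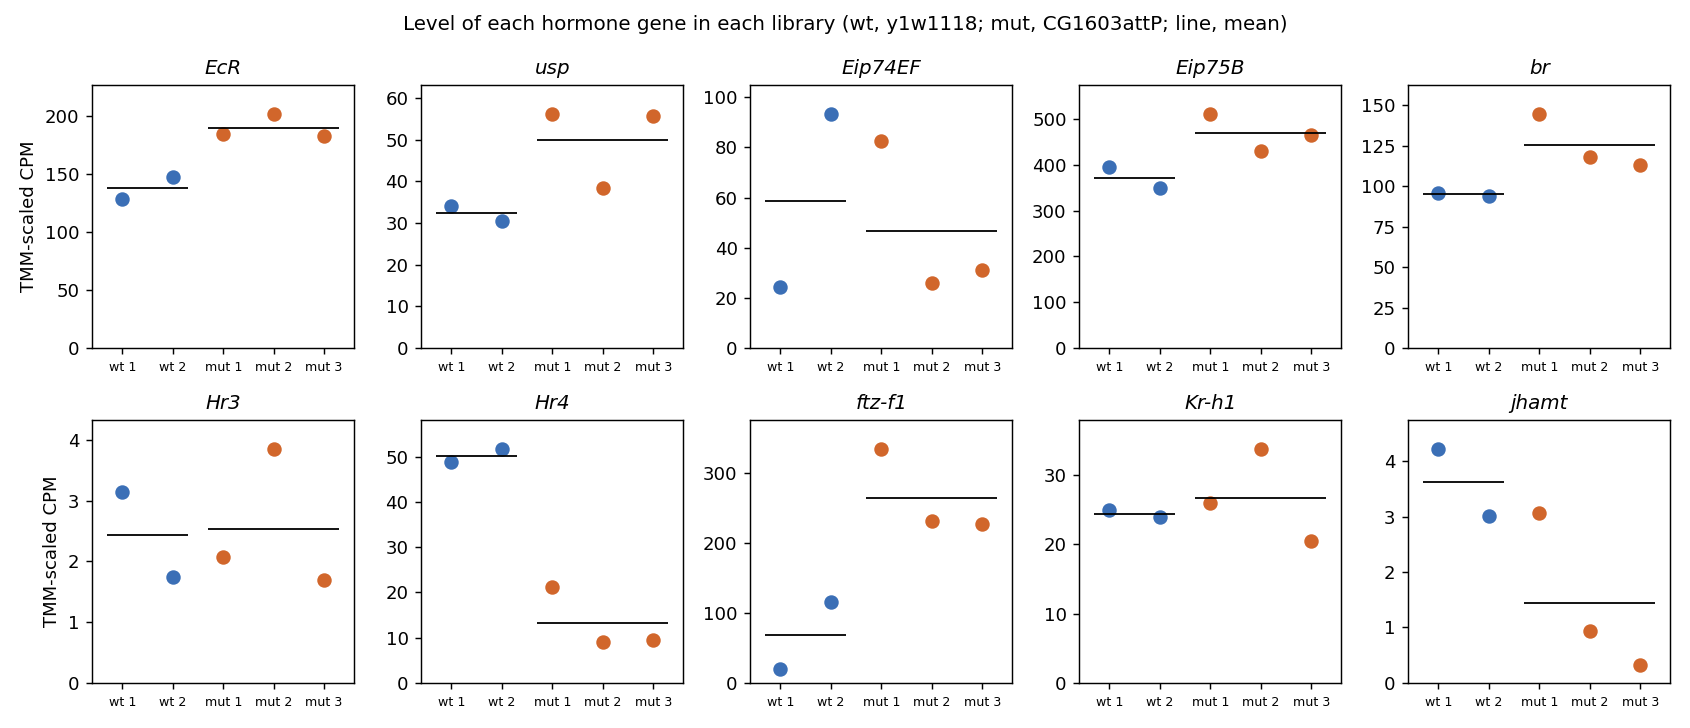
TMM-scaled CPM (vertical axes, each from 0) of the 10 hormone genes in the 2 y1w1118 libraries (wt, blue) and the 3 CG1603attP libraries (mut, orange). Each point is 1 library and each line the mean of a genotype. EcR lies between 183 and 201 CPM in the mutant and at 129 and 147 CPM in wild type, Hr4 at most at 21.2 CPM in the mutant, and Eip74EF is high in 1 library of each genotype.

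**Figure D2:**
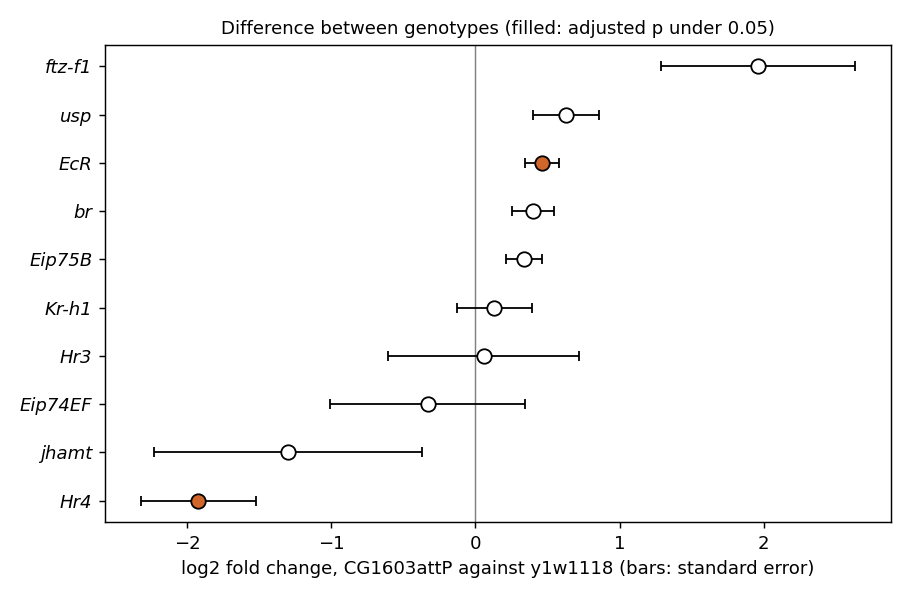
Log2 fold change of each hormone gene in CG1603attP against y1w1118 (horizontal axis), with bars of 1 standard error and filled points for genes with an adjusted p under 0.05. EcR at 0.46 and Hr4 at -1.92 are filled, and ftz-f1 at 1.96 has the widest positive change and is not.

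EcR, the ecdysone receptor, was at 184, 201 and 183 CPM in CG1603attP replicates 1, 2 and 3 and at 129 and 147 CPM in y1w1118 replicates 1 and 2. Every mutant library was above every wild-type library, with the nearest pair 1.25-fold apart. The log2 fold change was 0.46 (SE 0.12, adjusted p = 0.0287, edgeR), a 1.38-fold rise. The call rested on few libraries, since the adjusted p was 0.0584 without CG1603attP replicate 1, 0.274 without y1w1118 replicate 1 and 0.108 without y1w1118 replicate 2 (edgeR), with a range of 0.00504 to 0.274 over the 18 alternatives. Its partner usp was at 56.1, 38.3 and 55.6 CPM in the mutant and at 34.2 and 30.4 CPM in wild type, so the libraries did not overlap either. The log2 fold change of 0.63 (SE 0.23) missed the threshold (adjusted p = 0.0834, edgeR), and without CG1603attP replicate 2, the lowest of the mutant libraries, it was 0.81 (adjusted p = 0.0235, edgeR; 0.0235 to 0.597 over the alternatives). There were 3.28, 5.26 and 3.29 EcR reads for each usp read in the mutant and 3.76 and 4.83 in wild type. These ratios overlap between the genotypes and do not depend on how the libraries are scaled.

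The proteins that work with the receptor were listed as 8 coregulators and transport genes, of which 1 was lower and 1 higher, near the 15.7% and 14.6% of all genes. Oatp74D encodes the importer through which ecdysone enters cells. It was at 249, 181 and 239 CPM in the mutant and at 103 and 96.6 CPM in wild type, a log2 fold change of 1.16 (SE 0.17, adjusted p = 0.00343, edgeR), and with each library left out in turn it was between 1.08 and 1.31 and remained called. The coactivator gene tai, which also partners Met, was at 310 to 361 CPM in the mutant and at 242 and 262 CPM in wild type and just missed the threshold (log2 fold change 0.39, adjusted p = 0.0505, edgeR). rig, a gene needed for ecdysone responses in larvae, was the lower one, at 21.2, 24.0 and 7.41 CPM against 54.7 and 49.2 CPM (log2 fold change -1.56, SE 0.46, adjusted p = 0.0427, edgeR). Its call ended without CG1603attP replicate 1 or 2 (adjusted p = 0.0621 and 0.0524, edgeR), without y1w1118 replicate 1 or 2 (0.167 and 0.124), when libraries were scaled by size only (0.0613) and with the counts of one strand (0.0503).

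Among the early genes, Eip75B, which encodes a haem-binding nuclear receptor that opposes Hr3, had the highest CPM of all 10. It was at 511, 431 and 465 CPM in CG1603attP and at 395 and 349 CPM in y1w1118. The libraries did not overlap, with the nearest pair 1.09-fold apart, and the log2 fold change of 0.33 (SE 0.13) did not pass the test (adjusted p = 0.0902, edgeR). Without CG1603attP replicate 2 it passed, at 0.41 (adjusted p = 0.0494, edgeR; 0.0225 to 0.839 over the alternatives). br encodes the Broad zinc-finger proteins, which direct the entry into metamorphosis. It was at 144, 118 and 113 CPM in the mutant and at 95.6 and 94.1 CPM in wild type, again without overlap, and the log2 fold change was 0.40 (SE 0.14, adjusted p = 0.0817, edgeR).

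Eip74EF, an ETS-domain transcription factor gene, did not follow the genotype. It was at 82.5 CPM in CG1603attP replicate 1 and at 93.3 CPM in y1w1118 replicate 2, and at 26.2 and 31.0 CPM in the other mutant libraries and 24.3 CPM in y1w1118 replicate 1. The high libraries are the same pair that stood apart in the Twdl and Osi genes. The level in y1w1118 replicate 2 was 3.85-fold that in replicate 1, and the level in CG1603attP replicate 1 was 2.89-fold the mean of the other mutant libraries. Between the genotypes the log2 fold change was -0.33 (SE 0.67, adjusted p = 0.753, edgeR), and it turned to 0.93 without y1w1118 replicate 2 (adjusted p = 0.476, edgeR; 0.250 to 0.984 over the alternatives). Of the other early genes, Eip75B and br were within 1.28-fold between libraries of a genotype, so the difference of Eip74EF between replicates was not shared by them. Some of the listed ecdysone-induced genes were also high in CG1603attP replicate 1 only among the mutant libraries. ImpE2 was at 20.8, 0.509 and 2.33 CPM in the mutant and at 15.3 and 28.9 CPM in wild type, and ImpL1 at 23.04, 3.63 and 0 CPM against 14.8 and 30.4 CPM. Neither ImpE2 (adjusted p = 0.412) nor ImpL1 (adjusted p = 0.520) passed edgeR's test. ImpE2, ImpL1 and the similarly placed Edg78E (4.81, 1.02 and 0 CPM against 0.687 and 6.50 CPM) were singled out after their values were seen. Unlike Eip74EF, ImpE2 and ImpL1 were not as low in y1w1118 replicate 1 as in CG1603attP replicates 2 and 3. Others of the list were not highest in CG1603attP replicate 1, such as E23 (36.6, 39.1 and 39.4 CPM) and Blimp-1 (43.3, 61.9 and 46.3 CPM).

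**Figure D3:**
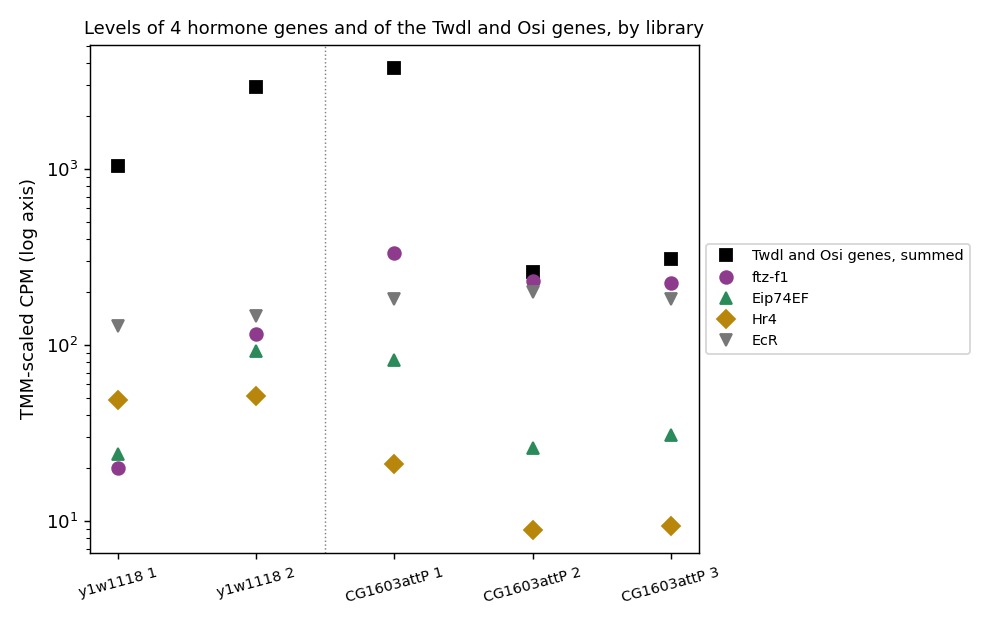
TMM-scaled CPM (log axis) of ftz-f1, Eip74EF, Hr4 and EcR and of the summed Twdl and Osi genes in each of the 5 libraries (horizontal axis). Eip74EF at 93.3 and 82.5 CPM and the summed genes at 2946 and 3773 CPM are high in y1w1118 replicate 2 and CG1603attP replicate 1, while ftz-f1 is above 226 CPM in every mutant library.

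Hr4, an orphan nuclear receptor of the early-late class that is needed for the prepupal switch between gene sets, fell most of the 10. It was at 21.2, 8.93 and 9.42 CPM in CG1603attP and at 48.8 and 51.7 CPM in y1w1118, so the highest mutant library lay 2.30-fold below the lower wild-type library. The wild-type mean was 50.3 ± 2.09 CPM (SD, n = 2) and the mutant mean 13.2 ± 6.97 CPM (SD, n = 3), and the log2 fold change was -1.92 (SE 0.40, adjusted p = 0.0129, edgeR). The decrease was between -1.68 and -2.45 with each library left out, and the adjusted p was 0.0603 and 0.0621 without y1w1118 replicate 1 or 2 and at most 0.0378 without a mutant library (edgeR; 2.64e-05 to 0.0621 over the 18 alternatives). The mutant library with the highest Hr4 level was replicate 1, which held 2.31 times the mean of the others. With both libraries that stood apart in the Twdl and Osi genes left out, the log2 fold change was -2.43 (adjusted p = 0.00017, edgeR, with 1 wild-type library assumed to vary like the mutant ones).

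Hr3 encodes the receptor that relays the pulse to ftz-f1. On its unshared exons it had 31, 53 and 16 reads in the mutant and 32 and 15 in wild type. The levels were 2.07, 3.85 and 1.69 CPM and 3.14 and 1.74 CPM, and they overlapped between the genotypes (log2 fold change 0.057, SE 0.66, adjusted p = 0.959, edgeR). The sign turned in 3 of the fits with fewer libraries, among them that without CG1603attP replicate 2 (-0.35, adjusted p = 0.735, edgeR; 0.731 to 0.976 over the alternatives). With most of its exons uncounted, the level of Hr3 as a whole was not measured here.

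ftz-f1, a nuclear receptor gene that gives cells the competence for the next pulse, varied most of the 10 over the 5 libraries, by 4.03 on the log2 scale, and 96.6% of all genes tested had the same or a smaller range. It was at 334, 231 and 227 CPM in CG1603attP replicates 1, 2 and 3 and at 20.03 and 116 CPM in y1w1118 replicates 1 and 2. All mutant libraries were above both wild-type libraries, with the nearest pair 1.95-fold apart, but the wild-type libraries themselves differed by 5.80-fold. The log2 fold change was 1.96 (SE 0.67) and missed the threshold in the test used throughout (adjusted p = 0.0709, edgeR). The size depended on the wild-type library. It was 1.18 without y1w1118 replicate 1 and 3.71 without y1w1118 replicate 2. Each of these fits left 1 wild-type library, assumed to vary like the mutant ones, so they do not measure the spread of the wild-type libraries. In the alternatives that kept all 5 libraries, the adjusted p ran from 0.0264 without a filter on low counts to 0.208 with the robust fit (edgeR). Compared side by side, the level of CG1603attP replicate 1 was 2.88-fold that of y1w1118 replicate 2, the libraries high in Twdl and Osi genes, and the mean of CG1603attP replicates 2 and 3 was 11.4-fold the level of y1w1118 replicate 1. For Hr4 the same comparisons gave 0.410 and 0.188. The overlapping lncRNA:CR45939, on the part it does not share with ftz-f1, had 49, 52 and 32 reads in the mutant and 6 and 11 in wild type, and did not pass the test (log2 fold change 1.90, adjusted p = 0.0734, edgeR).

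The opposite position of ftz-f1 and Hr4 was plainest as a ratio of reads, which no scaling of libraries can change. There were 15.7, 25.9 and 24.1 ftz-f1 reads for each Hr4 read in CG1603attP and 0.410 and 2.24 in y1w1118. This pair was chosen after its values were seen. Blimp-1 encodes an ecdysone-induced repressor known to act on ftz-f1 in prepupae. Whether Blimp-1 acts on ftz-f1 in these larvae was not tested. Blimp-1 fell in the mutant, from 128 and 92.1 to 43.3, 61.9 and 46.3 CPM, by 1.13 on the log2 scale (SE 0.22, adjusted p = 0.0103, edgeR). It was no longer called without y1w1118 replicate 1 (adjusted p = 0.0974, edgeR) or with the replicate number as a block (0.0638). The genes whose profiles over the 5 libraries were closest to ftz-f1, by the distance between centred log2 levels, were CG14626, CG11658, lncRNA:CR46039, Akh and lncRNA:CR32636, at distances from 0.66 to 1.23. Akh, the gene of adipokinetic hormone, was at 20.4, 23.6 and 15.3 CPM in the mutant and at 2.36 and 5.11 CPM in wild type. With 5 libraries many genes have similar profiles, and the likeness is a description only.

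On the side of juvenile hormone, neither jhamt nor Kr-h1 passed the test. jhamt, expressed in few cells of a larva, had 46, 13 and 3 reads in CG1603attP and 43 and 26 in y1w1118, which are 3.07, 0.944 and 0.318 CPM and 4.22 and 3.02 CPM. CG1603attP replicate 1 lay within the wild-type range and the other mutant libraries below it. The log2 fold change was -1.30 (SE 0.93, adjusted p = 0.345, edgeR), and without CG1603attP replicate 1 it was -2.46 (adjusted p = 0.0914, edgeR, the lowest of the 18 alternatives). Kr-h1, the main target of the hormone, was at 25.98, 33.8 and 20.4 CPM on its unshared exons in the mutant and at 24.9 and 23.9 CPM in wild type. The mutant libraries lay on both sides of the wild-type libraries, and the log2 fold change of 0.13 (SE 0.26, adjusted p = 0.743, edgeR) turned to -0.051 without CG1603attP replicate 2 (adjusted p = 0.887, edgeR; 0.289 to 0.947 over the alternatives).

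The receptor genes of juvenile hormone had log2 fold changes of opposite sign. Met was at 57.6, 54.3 and 67.5 CPM in the mutant and at 41.6 and 42.6 CPM in wild type, and gce at 36.8, 48.0 and 30.0 CPM against 54.8 and 61.1 CPM. The libraries did not overlap for either gene, and neither passed the test (log2 fold change 0.51 and adjusted p = 0.0628 for Met, -0.60 and 0.0973 for gce, edgeR). Over the 18 alternatives the log2 fold change ran from 0.38 to 0.69 for Met and from -0.77 to -0.029 for gce. Antisense RNA genes overlap 40.7% of the gce exons, and reads there were set aside. Of the 5 listed receptor and response genes 1 was lower and 2 were higher, beside 15.7% and 14.6% of all genes. This count of 3 fell to 1 with the replicate number as a block, where 26.9% of all genes were called. Leaving out either y1w1118 library lowered it too, and lowered the share of all genes called. Fkbp39, an immunophilin gene, fell from 120 and 124 CPM to between 39.9 and 49.5 CPM, by 1.50 on the log2 scale (SE 0.15, adjusted p = 0.00103, edgeR), and was called under every alternative. JhI-21 (log2 fold change 0.70, adjusted p = 0.0236, edgeR) and JhI-26 (0.94, adjusted p = 0.0451), found as genes induced by juvenile hormone in fly cells, were higher. Their adjusted p was 0.104 and 0.248 without y1w1118 replicate 1 and 0.211 and 0.199 without y1w1118 replicate 2, and for JhI-26 it was 0.0885 and 0.0672 without CG1603attP replicate 2 or 3 (edgeR). With the replicate number as a block it was 0.0542 for JhI-21 and 0.0769 for JhI-26, with the counts of one strand 0.0678 for JhI-21, and with the current form of the quasi-likelihood fit 0.0569 for JhI-26 (edgeR). Genes on the other strand overlap 12.5% of the JhI-21 exons and 70.5% of the JhI-26 exons, and reads there were set aside.

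The juvenile hormone epoxide hydrolases, which break the hormone down, changed in both directions, and all 3 of the tested turnover genes were called, beside 30.4% of all genes. Without y1w1118 replicate 1 fewer of them were called, and so were fewer of all genes. Jheh1 was at 8.61, 12.7 and 13.1 CPM in the mutant and at 46.7 and 42.2 CPM in wild type, and fell by 1.95 on the log2 scale (SE 0.25, adjusted p = 0.00214, edgeR). Jheh2 fell by 1.31 (adjusted p = 0.0132, edgeR) and was not called without y1w1118 replicate 1 (adjusted p = 0.106) or with the replicate number as a block (0.0584). Jheh3 was higher, at 88.0, 98.6 and 120 CPM against 39.8 and 53.7 CPM (log2 fold change 1.13, adjusted p = 0.00826, edgeR), and was not called without y1w1118 replicate 1 (adjusted p = 0.0763, the highest of the alternatives). There were 7.75 to 10.2 Jheh3 reads for each Jheh1 read in the mutant and 0.851 and 1.27 in wild type. The esterase genes Jhe and Jhedup were not tested, and their highest level in any library was 0.726 CPM. In the mevalonate pathway, which supplies the precursor of the hormone, Hmgs, the gene of HMG-CoA synthase, was at 379, 302 and 429 CPM in the mutant and at 126 and 132 CPM in wild type (log2 fold change 1.52, SE 0.17, adjusted p = 0.00151, edgeR). Fpps (log2 fold change -0.65, adjusted p = 0.0509) and Cyp6g2 (0.064, adjusted p = 0.950) did not pass edgeR's test.

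Per length, as CPM per kb of unshared exon, the order of the 10 genes in y1w1118 was Eip75B (27.6), Kr-h1 (21.5), EcR (13.9), usp (11.6), ftz-f1 (11.2), Eip74EF (6.30), br (4.74), Hr4 (3.63), jhamt (3.37) and Hr3 (1.35). The order of ftz-f1 and Eip74EF was not resolved. The ftz-f1 libraries, at 3.31 and 19.2 CPM per kb, spanned EcR, usp, br and Hr4 and overlapped Eip74EF and jhamt, and those of Eip74EF, at 2.60 and 9.99, spanned br, Hr4 and jhamt. Those of Hr4 and jhamt overlapped as well. In CG1603attP ftz-f1 came first at 43.6 CPM per kb, with libraries that overlapped those of Eip75B at 34.9, and Hr4 came last at 0.953, overlapping jhamt at 1.35 and Hr3 at 1.40. Kr-h1 (23.5), EcR (19.1) and usp (18.0) overlapped from each to the next, and so did br (6.25) and Eip74EF (4.99), whose lowest library was also below the highest of jhamt. These values spread the reads over all unshared annotated exons, so a gene with many alternative exons is understated.

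Of the 15 remaining nuclear receptor genes listed, 12 were tested, and 0 were called by edgeR (1 at an unadjusted p under 0.05, Hr96, and 1 by DESeq2), where 30.4% of all genes tested were called. Hr96 was at 43.7, 44.8 and 38.9 CPM against 31.0 and 26.5 CPM (log2 fold change 0.56, adjusted p = 0.0650, edgeR), and Eip78C, an early-late gene, at 18.2, 12.7 and 7.09 CPM against 19.5 and 20.9 CPM (-0.67, adjusted p = 0.247). The median of the list was 0.040.

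Another 18 genes were listed as induced by ecdysone. Of these 16 were tested, and 7 were lower and 2 higher, beside 15.7% lower and 14.6% higher among all genes. The count of 9 called fell to 2 without y1w1118 replicate 1, where 12.0% of all genes were called, and to 6 without y1w1118 replicate 2 (12.2%). E23, an early gene for an ABC transporter, was at 36.6, 39.1 and 39.4 CPM in the mutant and at 95.3 and 98.0 CPM in wild type. It fell by 1.33 on the log2 scale (SE 0.13, adjusted p = 0.00106, edgeR) and was called in all 18 alternatives. Edg91, a cuticle gene, had 18, 23 and 0 reads in the mutant and 203 and 195 in wild type (log2 fold change -4.40, adjusted p = 0.0121, edgeR), and its adjusted p was 0.0611 and 0.0655 without y1w1118 replicate 1 or 2. ImpE3 (-1.60, adjusted p = 0.0133) was lower too, and its adjusted p was 0.0874 and 0.134 without the same libraries and 0.272 without the pair high in Twdl and Osi genes (edgeR). ImpL2, whose secreted product binds insulin-like peptides, went the other way, at 530, 382 and 355 CPM against 85.0 and 65.9 CPM (log2 fold change 2.48, SE 0.23, adjusted p = 0.00083, edgeR). Cyp18a1, which inactivates ecdysone and is induced by it, was higher (0.56, adjusted p = 0.0359, edgeR). This call ended without any 1 library other than CG1603attP replicate 3, with an adjusted p between 0.0588 and 0.290, and with the counts of one strand (0.0616). Eip93F, the gene of an adult specifier, was at most at 2.44 CPM and was not tested.

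**Figure D4:**
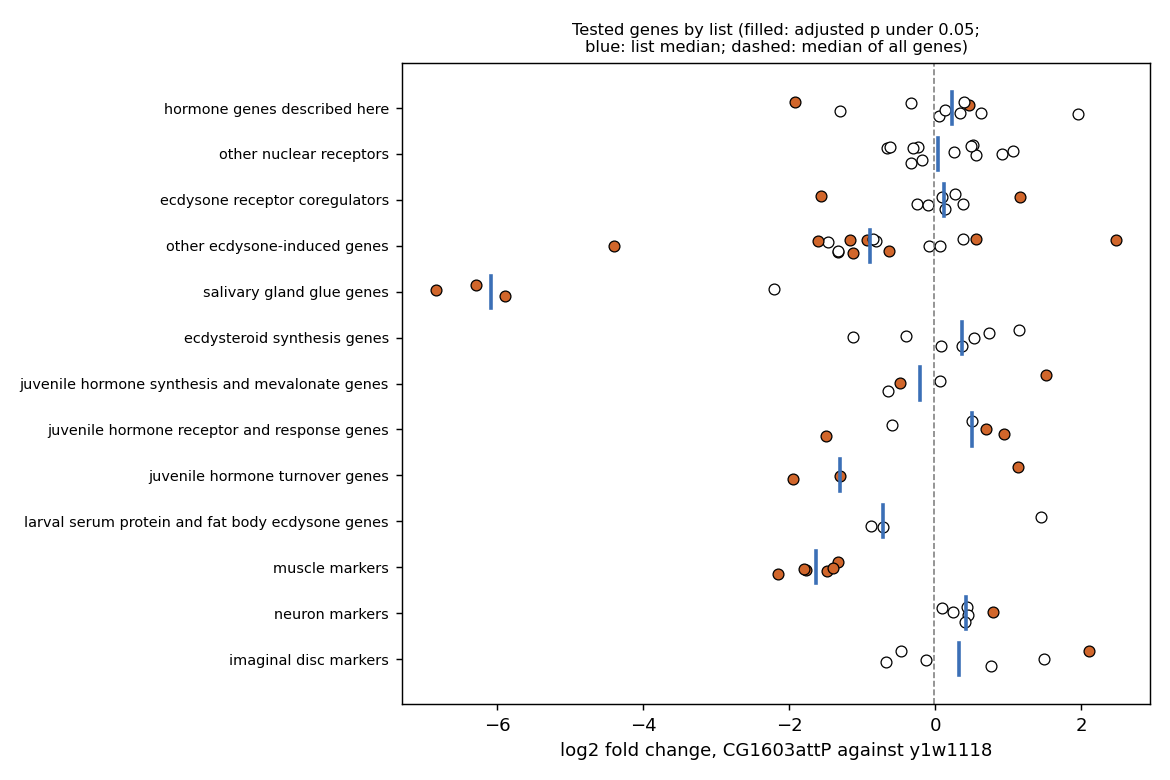
Log2 fold change (horizontal axis) of each tested gene by list, with filled points for an adjusted p under 0.05, a blue bar at the list's median and a dashed line at the median of all genes (-0.011). The genes ng1, ng2 and ng3 lie between -6.84 and -5.89, the ecdysone-induced genes have 7 lower and 2 higher genes called, and the 12 other nuclear receptors have none.

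The Sgs glue genes and the late puff genes, which follow later pulses of the instar, were near the floor in both genotypes. The salivary gland glue genes Sgs1, Sgs3, Sgs4, Sgs5, Sgs5bis, Sgs7 and Sgs8, which are abundant from the middle of the third instar, were at most at 1.87 CPM in any library. Of the 11 Eig71E late puff genes 10 had 0 reads in every library. Lsp2, a larval serum protein gene of late larvae, was at most at 1.17 CPM, while Lsp1gamma, another of these genes, was at 2.47 to 9.13 CPM. However, 84.6% of the Lsp2 exons overlap asRNA:CR11538 on the other strand, where reads were set aside. The CPM of Lsp2 therefore understate this gene, and its level as a whole was not measured. Of the 6 genes of serum proteins and fat body ecdysone responses 3 were tested and 0 were called by edgeR, by DESeq2 or at an unadjusted p under 0.05. The salivary gland genes ng1, ng2 and ng3, active before the glue genes, were at 59.5 CPM or more in wild type and at 5.08 CPM or less in the mutant, and 3 of the 4 tested genes of the glue list were lower, beside 15.7% of all genes. Unlike these, ng4 was at most at 0.812 CPM in any library and was not tested. ng2 had 2, 10 and 10 reads in CG1603attP and 832 and 513 in y1w1118, a fall by 6.84 on the log2 scale (SE 0.61, adjusted p = 0.000738, edgeR), and ng1 fell by 6.29 (adjusted p = 0.00403) and was called in all 18 alternatives. ng3 fell by 5.89 (adjusted p = 0.015, edgeR), was at 5.08 CPM in CG1603attP replicate 3, and was not called without y1w1118 replicate 1 (adjusted p = 0.0601) or with the robust fit (0.0917).

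The genes for making ecdysone gave no call. Of 11 listed genes found, 7 were tested, and 0 were called by edgeR (1 at an unadjusted p under 0.05, and 1 by DESeq2), beside 30.4% of all genes. The prothoracic gland genes spok and phm (counted as phtm) were low, at 4.41, 5.08 and 7.84 CPM against 8.93 and 6.27 CPM and at 6.41, 4.07 and 7.09 CPM against 6.38 and 2.67 CPM, and their libraries overlapped between the genotypes. shd, whose enzyme turns ecdysone into its active form in peripheral tissues, was at 91.4, 77.5 and 109 CPM in the mutant and at 63.2 and 64.7 CPM in wild type, without overlap (log2 fold change 0.53, adjusted p = 0.0607, edgeR).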

How the data were processed

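Gene counts of 5 larval RNA-seq libraries were used. Before deposit, the authors ran cutadapt on the reads and STAR against dm6, and the deposited values are its unnormalized gene counts (GeneCounts; versions and annotation release are not given in the sources used here). The unstranded counts were taken. The counter's summary lines (unmapped, multimapping, without feature, ambiguous) held 23.8% to 30.0%, 5.58% to 10.6%, 4.15% to 6.22% and 3.28% to 6.26% of a library and were left out, as were 138 ribosomal RNA genes, as in the study. Symbols came from a gene table (138 of 17735 identifiers had none) and positions from the Ensembl annotation of the same assembly, which may differ from the annotation used for counting. Of the listed genes, nvd was not matched. A result on 1 listed gene is not reported here.

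The test was edgeR 4.0.16 in R 4.3.3 (filterByExpr with a minimum count of 10 and total of 15, TMM, estimateDisp, legacy glmQLFit, glmQLFTest), with calls made below 0.05 after adjustment. TMM, estimateDisp, glmQLFit and glmQLFTest are the functions of the study, and the filter was chosen here. Each SE was derived from the fold change and its F statistic, as |log2 fold change|/√F. The fit was tested on simulated data. Log2 levels for ranges and profiles used a pseudocount of 0.5 CPM. The floor of 3 reads covers counting error only. Replicates are described as biological, and pairs differed by 18.8 to 44.9 times the sampling noise (chi-square per degree of freedom), so none was counted as a copy.

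The 10 genes and all lists were chosen with earlier results of these data known. Named were the 10 genes, the called genes of each list with the widest changes, and 12 genes close to them (such as Met, gce, Blimp-1 and E23). Hr96, Fpps, Cyp6g2, Lsp2, Lsp1gamma, ImpE2, ImpL1, Edg78E, TwdlM, TwdlN, TwdlO and TwdlX were named after their values were seen. Alternatives were DESeq2 1.42.0, other fits, scalings, filters and strands, each replicate left out, 2 libraries left out together, and the replicate number as a block.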

Additional observations from a re-analysis of the deposited data

How the results depend on the processing

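With 2 wild-type libraries, leaving either out leaves 1, which is then assumed to vary like the mutant libraries. Over the fits that leave out 1 library, between 1410 and 3540 genes, between 0 and 4 of the 10 hormone genes and between 8 and 22 genes of the pathway lists were called, against 3353, 2 and 22. Without CG1603attP replicate 1 and y1w1118 replicate 2 together, 1599 genes were called. The pathway lists held 62 tested genes, and the 22 called in the main fit were 35.5% of them, beside 30.4% of all genes. Their lowest count came without y1w1118 replicate 1, where fewer of all genes were called too. DESeq2 called 4 of the 10 hormone genes (EcR, usp, Eip75B and Hr4). Scaling by library size only called 5 (br in addition), a setting that moves the median of all genes to 0.13. ftz-f1 was called with the current quasi-likelihood fit (adjusted p = 0.036, edgeR), without a filter (0.0264) and on one strand (0.049). Its log2 fold change was 3.50 without the 2 libraries, in a fit with 1 wild-type library. EcR was not called without them (adjusted p = 0.255). Hr4 and ftz-f1 kept their direction in all 18 alternatives. The sign turned for Eip74EF (0.22 without the 2 libraries, -1.03 to 0.93 without 1 library, the latter without y1w1118 replicate 2), Hr3 (-0.19 without the 2, -0.35 to 0.54 without 1 library), Kr-h1 (-0.051 to 0.32 without 1 library) and phm (-0.21 without the 2, -0.057 on one strand, -0.14 to 1.12 without 1 library, the former without y1w1118 replicate 2). Deviations of same-numbered libraries from the mean of their genotype correlated at -0.506 and -0.270. With 2 wild-type libraries these deviations mirror each other, so the correlations cannot show whether the replicate numbers pair the libraries. With the replicate block, 2967 genes and the same 2 hormone genes were called. Reads of Hr3 and jhamt limit what can be said of them.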
